A study of Mus musculus with 6 samples.

Results

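Sarcomere genes encode the contractile machinery of striated muscle. They were followed here in bone RNA from wild-type mice and from mice carrying the MIR29cb2-/- genotype, which lack the microRNA cluster of miR-29c and miR-29b-2. The members were a fixed list of 35 sarcomere genes, matched by gene symbol among the 54532 genes of the deposited expression table. All 35 were found. Each group held 3 libraries (WT rep1 to rep3 and MIR29cb2-KO rep1 to rep3) from female C57BL/6J mice aged 16 weeks, and libraries were made from total RNA of frozen bone. The labels leave out which bone was used, whether muscle or marrow was removed, whether the deletion was limited to a cell type, or whether each library was 1 animal. The p-values therefore cover the spread among the libraries only, and part of it may be technical.

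A sarcomere is the repeating unit between 2 Z discs of a muscle fibre. Thick filaments of myosin pull on thin filaments of actin, and tropomyosin and the troponin complex on the thin filament make this pull depend on calcium. Titin and nebulin are giant proteins that span the filaments, and a set of Z-disc proteins anchors them. Fast and slow fibres use different genes for many of these parts. Bone has no sarcomeres of its own, but skeletal muscle inserts on it, and muscle fibres left on dissected bone carry these transcripts.

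Values are FPKM, a read level scaled to exon length and library size, so that genes can be compared with one another. Recovered read totals were 16727111 to 20118034 per library. A library of each group, wild-type replicate 2 and replicate 1 of the knockout, stood apart. They had FPKM totals of 489576 and 487102, while the remaining 4 had 355787 to 404994. In both, longer genes lay lower relative to the group's mean (Spearman's rho with exon length, across genes, of -0.42 and -0.45). Results are therefore also given without both. A330023F24Rik, the long noncoding transcript that hosts the cluster, stood at 0.136 to 0.197 FPKM in wild-type and 2.51 to 4.08 FPKM in knockout libraries. Mir29b-2 and Mir29c were listed at 0 in all libraries, which checks nothing for RNAs this short. The labels were thus not checked by loss of a transcript. The bone label was checked on 10 osteoblast and osteocyte markers, all tested, whose summed level was 1679 to 3076 FPKM in wild-type and 725.9 to 1501 FPKM in knockout libraries.

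Most sarcomere genes were lower in knockout bone. Together the 35 genes made up 1.75%, 2.07% and 1.32% of all FPKM in wild-type replicates 1 to 3 and 0.582%, 0.741% and 1.04% in knockout replicates 1 to 3. The groups did not overlap, and the mean share in the knockout was 0.460 times that in wild type. A lower level in a bulk sample can come from fewer muscle fibres or from less RNA per fibre, among other sources. FPKM is scaled to library size, so it also depends on RNA from other cells. These cannot be told apart here. By the test described next, 3 of 10 fast-fibre genes, 0 of 7 slow-fibre genes and 5 of 15 other members fell. Of all genes tested 3.82% fell, and none of the member groups was shown to differ from another.

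To find which of these differences exceeded the spread between libraries, log2(FPKM + 1) was compared between genotypes by limma over all 13619 genes with a mean of at least 1 FPKM. Of the 35 genes 32 were tested, and 8 fell and 0 rose at an adjusted p under 0.05. Over all genes tested, 3.82% fell and 1.34% rose. The 8 that fell were Mybph, Actc1, Tcap, Myh2, Ldb3, Tpm1, Mylpf and Myl1. Of the 32 genes 22 had an unadjusted p under 0.05, against 2812 of all 13619 genes tested. The median log2 change of the 32 was -0.81, against 0.06 over all genes tested. A negative sign was seen in 28 of the 32, against 5573 of the 13619. All 3 knockout libraries lay below all 3 wild-type libraries in 18 of the 32, against 13.7% of all genes tested. They lay above them in 1, Tpm3, against 14.7%. The 3 genes under the filter were Myh7, Tnni1 and Tnnc2, and Mybph passed it through its wild-type level alone.

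The 8 calls depended on the number of libraries. Without both libraries that stood apart 2 genes fell, Mybph and Actc1, with a median log2 change of -0.51 over the members. Leaving out wild-type replicate 1 or knockout replicate 2 left 1 of the 8 calls. Leaving out wild-type replicate 2 or knockout replicate 1 left 2. Without wild-type replicate 3 there were 4 calls, of which 3 were among the 8. Without knockout replicate 3 there were 5, of which 4 were among the 8. Mybph was among the calls each time, which says little of its stability. It passed the filter through its wild-type level alone, and each omission kept the filter of all libraries.

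**Figure D1:**
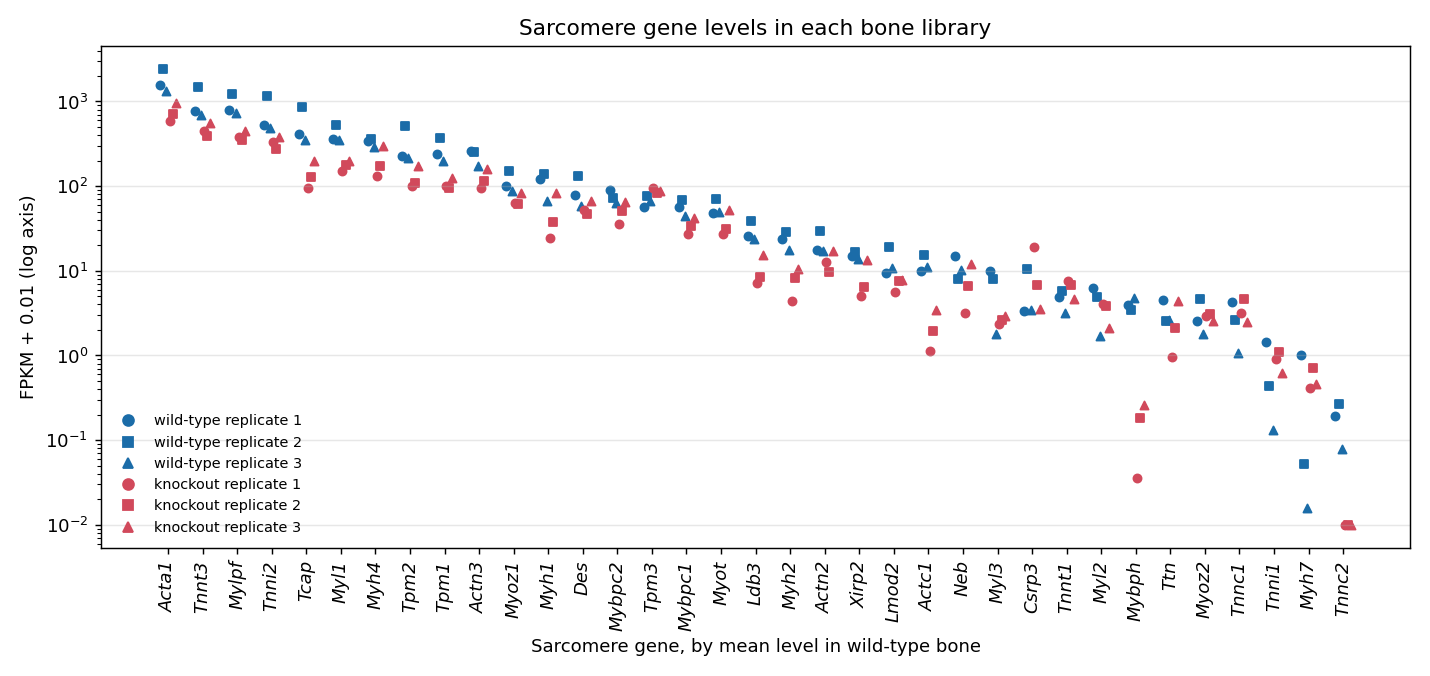
Level of each of the 35 sarcomere genes in each library, as FPKM plus an offset of 0.01 on a log axis, with genes ordered by their wild-type mean. Blue symbols are wild-type and red symbols knockout libraries, with 1 shape per replicate number. The abundant genes on the left, led by Acta1, lie lower in red than in blue, Mybph shows the widest gap, and the slow-fibre genes toward the right overlap.

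The myosin-binding proteins sit on the thick filament and adjust how myosin heads reach actin. Mybph, myosin-binding protein H, showed the largest difference of any member. It stood at 3.92, 3.45 and 4.71 FPKM in wild-type replicates 1 to 3 and at 0.026, 0.173 and 0.248 FPKM in knockout replicates 1 to 3. The wild-type values rested on 543 reads and the knockout values on 18, with 1 read in knockout replicate 1. The knockout libraries were far below the wild-type libraries, with a log2 change of -2.13 ± 0.16 (SE) and a limma adjusted p of 0.00349. The knockout mean of Mybph was under the filter, so it was tested through its wild-type level alone. Because the added pseudocount shrinks changes near 0, the log2 change was -4.16 with a pseudocount of 0.1 and -5.07 by voom on recovered reads. In mm10 coordinates Mybph spans bases 134193448 to 134201232 of chromosome 1, plus strand, and 49.9% of its exon bases also lie in exons of Adora1, on the minus strand. Adora1 had 0.197 ± 0.0202 FPKM in wild type and 0.0139 ± 0.0241 FPKM in the knockout (SD, n = 3). The use of strand is not given, so reads of this overlap cannot be assigned to either gene.

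Mybpc1 and Mybpc2 encode the slow-type and fast-type myosin-binding protein C. Mybpc1 stood at 56.3, 69.1 and 44.0 FPKM in wild type and 27.1, 33.7 and 42.1 FPKM in the knockout. Mybpc2 stood at 89.8, 73.0 and 62.6 FPKM in wild type and 35.8, 51.4 and 65.3 FPKM in the knockout. The groups did not overlap for Mybpc1 and overlapped for Mybpc2, and neither passed (log2 changes -0.70 and -0.58, limma adjusted p = 0.125 and 0.236).

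Myosin heavy chains are the motor proteins of the thick filament. Myh4 is the heavy chain of the fastest fibres (type 2B), Myh1 that of type 2X, Myh2 that of type 2A and Myh7 that of slow fibres. Myh4 was the most abundant, at 340, 359 and 289 FPKM in wild type and 132, 171 and 300 FPKM in the knockout. Knockout replicate 3 lay within the wild-type range. The log2 change was -0.79 ± 0.31 (SE), with a limma adjusted p of 0.204. Myh1 stood at 121, 138 and 67.6 FPKM in wild type and 24.3, 37.7 and 81.9 FPKM in the knockout, also with an overlap through knockout replicate 3 (-1.28 ± 0.46, limma adjusted p = 0.170). Myh2 (chromosome 11, 67171027 to 67197517, plus strand) was the heavy chain that fell. Its levels were 23.9, 28.6 and 17.8 FPKM in wild type and 4.39, 8.26 and 10.4 FPKM in the knockout, with no overlap. The log2 change was -1.53 ± 0.30 (SE), with a limma adjusted p of 0.0368.

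Myh7 was near the limit of detection. It had 178, 7 and 1 reads in wild-type replicates 1 to 3 and 57, 106 and 67 reads in knockout replicates 1 to 3. Nearly all wild-type reads thus came from replicate 1, and no genotype order can be read from these values. As a share of the summed FPKM of the 4 heavy chains, Myh2 made up 4.91%, 5.45% and 4.75% in wild type and 2.73%, 3.80% and 2.65% in the knockout, without overlap. The Myh4 share was 69.9%, 68.4% and 77.2% in wild type and 81.9%, 78.6% and 76.4% in the knockout, and the Myh1 share 24.98%, 26.2% and 18.1% against 15.1%, 17.3% and 20.8%, both with overlap. These genes resemble one another. Of all stretches of 50 bases in the annotated transcripts of Myh1, Myh2 and Myh4, 25.4%, 22.9% and 18.9% also occur in another gene, mostly another heavy chain, so part of their reads may have been placed on the wrong gene. The antisense gene Myhas, which overlaps 8.1% of the exon bases of Myh1, went from 3.14 ± 0.410 to 0.590 ± 0.454 FPKM (SD, n = 3).

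Myosin light chains clasp the neck of the myosin motor. Both fast forms fell. Myl1, the fast essential light chain (chromosome 1, 66924295 to 66945404, minus strand), stood at 361, 521 and 349 FPKM in wild type and 153, 180 and 199.97 FPKM in the knockout. Mylpf, the fast regulatory light chain (chromosome 7, 127208890 to 127214298, plus strand), stood at 787, 1214 and 735 FPKM in wild type and 377, 350.2 and 447 FPKM in the knockout. The knockout libraries were below every wild-type library for both genes. The log2 changes were -1.19 ± 0.22 and -1.19 ± 0.25 (SE), with limma adjusted p-values of 0.0326 and 0.0461. The pseudogene Mylf-ps, which shares sequence with 11.7% of the 50-base stretches of Myl1, took up 104 ± 33.6 FPKM in wild type and 42.9 ± 6.10 FPKM in the knockout (SD, n = 3), so the level of Myl1 may be understated in both groups.

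The slow light chains differed more within wild type than between genotypes. Myl2, the slow regulatory light chain, stood at 6.18, 4.84 and 1.71 FPKM in wild type and 4.02, 3.80 and 2.10 FPKM in the knockout (log2 change -0.20). Myl3, the slow essential light chain, stood at 9.83, 7.92 and 1.76 FPKM in wild type and 2.36, 2.61 and 2.88 FPKM in the knockout (log2 change -0.83, limma adjusted p = 0.393). Wild-type replicate 3 was the lowest library for both, and without it Myl3 passed (log2 change -1.44, limma adjusted p = 0.0221).

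On the thin filament, the 2 striated-muscle actins moved unequally. Acta1, the actin of adult skeletal muscle, had the highest level of all members, at 1586, 2437 and 1314 FPKM in wild type and 595, 703 and 965 FPKM in the knockout. The groups did not overlap, but the threshold was missed (log2 change -1.22 ± 0.32 (SE), limma adjusted p = 0.0813). Actc1, the actin of heart and of developing or regenerating skeletal muscle, fell (chromosome 2, 114047282 to 114053548, minus strand). It stood at 9.99, 15.5 and 11.2 FPKM in wild type and 1.12, 1.92 and 3.43 FPKM in the knockout, from 1148 and 180 reads. The log2 change was -2.11 ± 0.28 (SE), with a limma adjusted p of 0.0160. Without wild-type replicate 1 or knockout replicate 2 the call was lost (limma adjusted p = 0.0559 and 0.0696). Of the sum of both actins, Actc1 made up 0.626%, 0.630% and 0.845% in wild type and 0.188%, 0.272% and 0.354% in the knockout. The share was lower in every knockout library, and its exact two-sided permutation p was 0.1, the smallest that 3 against 3 libraries allow. Mybph lay at 0.142% to 0.359% of the Acta1 level in wild type and 0.00435% to 0.0257% in the knockout. Actc1 and Mybph had already been called lower in these same libraries, so neither share is separate support.

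Tropomyosins lie along the thin filament and cover the myosin-binding sites of actin. Tpm1 (chromosome 9, 67022590 to 67049406, minus strand) fell, from 238, 374 and 199 FPKM in wild type to 99.7, 95.2 and 126 FPKM in the knockout (log2 change -1.29 ± 0.26 (SE), limma adjusted p = 0.0392). Tpm2 stood at 229, 520.3 and 217 FPKM in wild type and 100.05, 110 and 174 FPKM in the knockout. Its groups were apart, yet the test was not passed (-1.25, limma adjusted p = 0.117). Tpm3, whose products include a slow-muscle tropomyosin and forms made in most cells, lay on the other side. It stood at 56.4, 77.1 and 67.2 FPKM in wild type and 95.4, 82.7 and 87.1 FPKM in the knockout, higher in every knockout library, without passing (0.41 ± 0.16 (SE), limma adjusted p = 0.199). Of its 50-base stretches 23.2% occur in other genes, first among them Tpm3-rs7, which had 11.6 ± 2.02 FPKM in wild type and 17.5 ± 1.29 FPKM in the knockout (SD, n = 3).

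The troponin complex has a tropomyosin-binding subunit (T), an inhibitory subunit (I) and a calcium-binding subunit (C). No tested troponin gene passed, and the tested fast and slow forms differed in the sign of their change. Tnnt3, fast troponin T, stood at 772, 1495.4 and 686 FPKM in wild type and 445, 387 and 554 FPKM in the knockout (log2 change -1.02, limma adjusted p = 0.141). Tnnt1, its slow counterpart, stood at 4.93, 5.79 and 3.19 FPKM in wild type and 7.58, 6.85 and 4.61 FPKM in the knockout (0.39, limma adjusted p = 0.410). The fast gene was below the wild-type range in every knockout library, while the slow gene overlapped.

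Troponin I showed the same arrangement of overlap, but no sign of change is read for its slow form. Tnni2, the fast form, stood at 529, 1176 and 485 FPKM in wild type and 336, 277 and 378 FPKM in the knockout (log2 change -1.03, limma adjusted p = 0.161). Tnni1, the slow form, stood at 1.42, 0.427 and 0.123 FPKM in wild type and 0.905, 1.09 and 0.610 FPKM in the knockout, under the filter. The fast gene did not overlap between groups. The slow gene varied more within wild type than between the genotypes.

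Troponin C could not be compared. Tnnc2, the fast form, had 3, 4 and 1 reads in wild type and 0 in each knockout library, where a count of 0 allows up to 0.226 FPKM. Of its exon bases 74.0% also lie in exons of Ube2c, a cell-division gene on the opposite strand that stood at 125 ± 31.6 FPKM in wild type and 139 ± 36.1 FPKM in the knockout (SD, n = 3). No value of Tnnc2 is therefore read as its level. Tnnc1, the slow form, stood at 4.29, 2.61 and 1.07 FPKM in wild type and 3.19, 4.58 and 2.498 FPKM in the knockout (log2 change 0.35, limma adjusted p = 0.641).

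At the Z disc, 2 genes fell. Tcap encodes telethonin, which caps titin at the Z disc (chromosome 11, 98383811 to 98384953, plus strand). It stood at 409, 856 and 354 FPKM in wild type and 95.1, 127 and 198 FPKM in the knockout (log2 change -1.89 ± 0.40 (SE), limma adjusted p = 0.0457). Ldb3 encodes a PDZ and LIM domain protein that binds alpha-actinin (chromosome 14, 34526603 to 34588682, minus strand). Its levels were 25.8, 39.0 and 23.6 FPKM in wild type and 7.22, 8.33 and 15.4 FPKM in the knockout (-1.46 ± 0.30, limma adjusted p = 0.0411). The groups of both genes were separate, with knockout replicate 3 the highest of its group.

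Other Z-disc genes did not pass. The alpha-actinins crosslink actin there. Actn3, the fast-fibre form, stood at 260, 252 and 171 FPKM in wild type and 94.5, 113 and 158 FPKM in the knockout, and Actn2, in all fibres, at 17.7, 29.9 and 17.2 FPKM against 12.6, 9.68 and 17.0 FPKM (log2 changes -0.90 and -0.67, no overlap). Myoz1, a Z-disc protein of fast fibres, stood at 101, 150 and 87.4 FPKM in wild type and 63.4, 62.0 and 82.2 FPKM in the knockout (-0.67, no overlap). Myoz2, its slow counterpart, stood at 2.55, 4.69 and 1.80 FPKM in wild type and 2.89, 3.07 and 2.55 FPKM in the knockout (-0.0026, with overlap). Myot, which encodes the actin crosslinker myotilin, and Des, the muscle intermediate filament desmin, had log2 changes of -0.62 and -0.62 and overlapped. Xirp2, an actin-binding protein, and Lmod2, which elongates thin filaments, had log2 changes of -0.90 and -0.77 without overlap. Csrp3, muscle LIM protein, was the most uneven, at 3.38, 10.4 and 3.46 FPKM in wild type and 19.1, 6.88 and 3.57 FPKM in the knockout. Its log2 change of 0.57 ± 0.59 (SE) was -0.01 without knockout replicate 1.

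The giant proteins were low per kilobase and followed the libraries' length trend. Ttn, titin, has 116825 exon bases and Neb, nebulin, 26582. Ttn stood at 4.55, 2.57 and 2.60 FPKM in wild type and 0.941, 2.12 and 4.37 FPKM in the knockout. Neb stood at 14.8, 8.08 and 10.1 FPKM in wild type and 3.15, 6.59 and 12.1 FPKM in the knockout. For both genes the 2 libraries that stood apart were the lowest of their groups, and the groups overlapped (log2 changes -0.38 and -0.65). With each library's trend on exon length removed, the log2 changes were -0.46 and -0.72 and neither passed (limma adjusted p = 0.299 and 0.145).

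**Figure D2:**
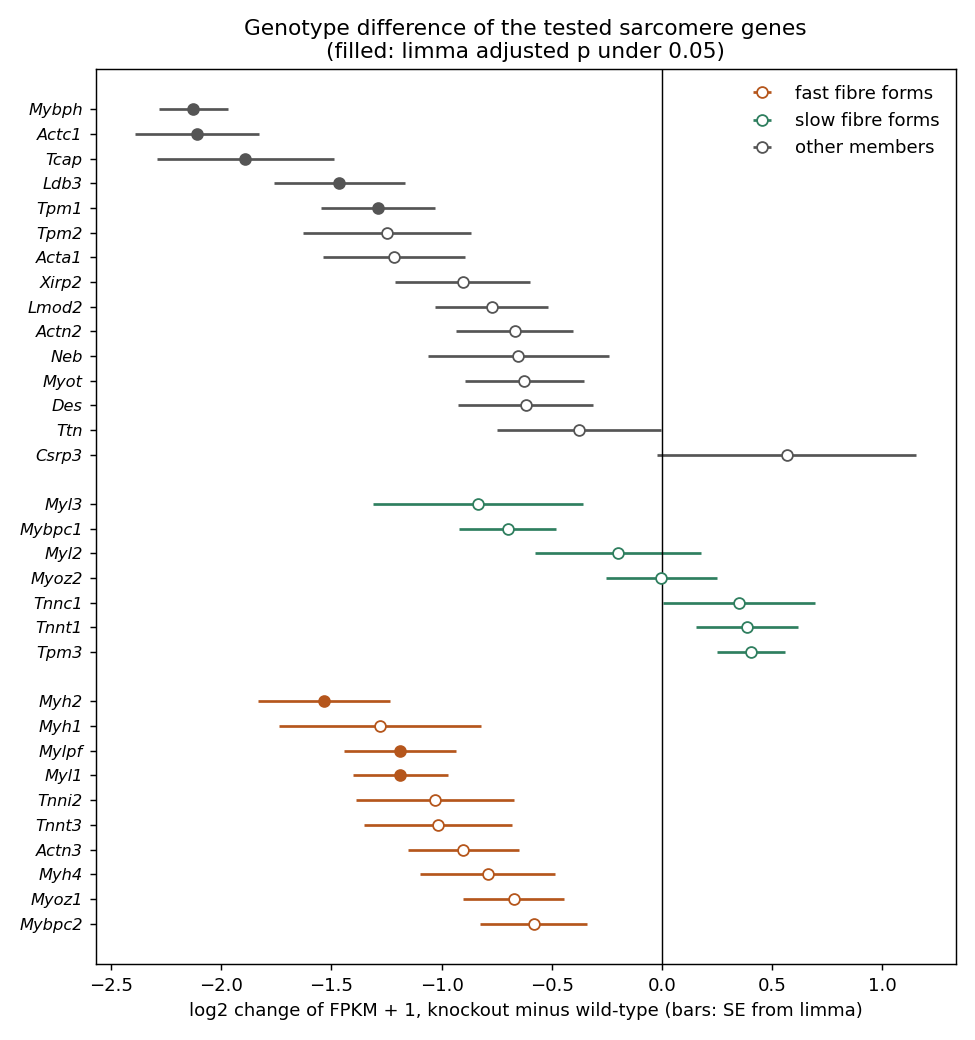
Log2 change of FPKM + 1 (knockout minus wild-type, x axis) for the 32 tested sarcomere genes, with bars for the standard error from limma and filled symbols for a limma adjusted p under 0.05. All 10 tested fast-fibre genes lie to the left of 0, from -1.53 to -0.58, whereas the 7 tested slow-fibre genes lie from -0.83 to 0.41.

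Fast and slow isoforms were then set side by side. Of 11 fast-fibre genes 10 were tested, 3 fell, and the median log2 change was -1.02. Of 9 slow-fibre genes 7 were tested, 0 fell or rose, and the median was -0.0026, or -0.10 without Tpm3. Among the other 15 members, all tested, 5 fell, and the median was -0.90. Of all genes tested 3.82% fell. Summed over the fast genes, levels were 3386, 5406 and 2951 FPKM in wild type and 1665, 1638 and 2278 FPKM in the knockout. The slow sum without Tpm3 was 86.5, 95.4 and 53.6 FPKM in wild type and 48.4, 56.4 and 57.8 FPKM in the knockout. The fast sum was far above the slow sum in every library, and the fast sum did not overlap between genotypes while the slow sum did.

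The log2 ratio of the summed levels was 4.57, 4.97 and 4.61 in wild type and 3.53, 3.56 and 3.98 in the knockout, lower in every knockout library. Tpm3 carried much of the slow sum. Without it the ratio was 5.29, 5.83 and 5.78 in wild type and 5.10, 4.86 and 5.30 in the knockout, and wild-type replicate 1 fell inside the knockout range. Mybpc1 carried much of the rest. Without both genes the slow sum was 30.2, 26.3 and 9.65 FPKM in wild type and 21.3, 22.7 and 15.7 FPKM in the knockout. The ratio was then 6.81, 7.68 and 8.26 in wild type and 6.285, 6.17 and 7.18 in the knockout, with overlap.

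For single pairs, log2 ratios of FPKM + 1 were compared over the libraries by a two-sided exact permutation test, adjusted over the 12 pairs. No pair could pass the threshold in a design of this size. For 4 pairs the ratio holds little or no information: Tnnc2 over Tnnc1 for the reason given above, and the 3 ratios over Myh7, whose level was so low that the added pseudocount makes them restate the levels of Myh1, Myh2 and Myh4. Of the 8 other pairs, 7 had a lower mean ratio in the knockout and 3 had no overlap between groups, each with an exact p of 0.1, the smallest possible, and an adjusted p of 0.24. These were Tpm1 over Tpm3 (a difference of -1.70), Tnnt3 over Tnnt1 (-1.40) and Myoz1 over Myoz2 (-0.67). Tpm1 is not a gene of fast fibres alone and was counted among the other members. Tnnt1 made up 0.635%, 0.386% and 0.463% of Tnnt1 plus Tnnt3 in wild type and 1.68%, 1.74% and 0.827% in the knockout. Myoz2 made up 2.46%, 3.03% and 2.01% of Myoz1 plus Myoz2 in wild type and 4.36%, 4.72% and 3.01% in the knockout, with wild-type replicate 2 just above knockout replicate 3, so that these shares, taken without the pseudocount, overlapped.

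The other pairs overlapped. Mylpf over Myl2 and Tnni2 over Tnni1 differed by -0.99 and -1.27 (exact permutation p = 0.2 each, adjusted p = 0.3), and Tnni1 was under the filter. Actn3 over Actn2 differed by -0.23, Myl1 over Myl3 by -0.35 and Mybpc2 over Mybpc1 by 0.12 (exact permutation p = 0.5, 0.7 and 0.7). The difference of Myl1 over Myl3 was 0.15 without wild-type replicate 3, and that of Mybpc2 over Mybpc1 was -0.05 without wild-type replicate 2.

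**Figure D3:**
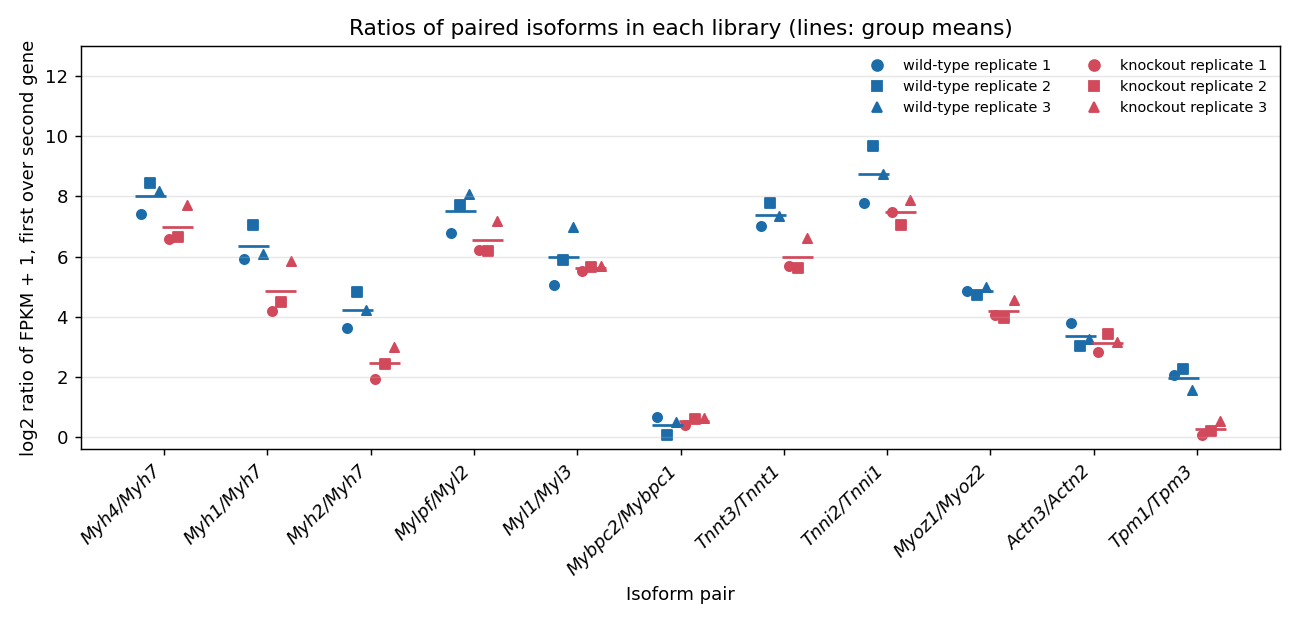
Log2 ratio of FPKM + 1 of the first over the second gene of each isoform pair (y axis) in each library, with short lines for group means and Tnnc2 over Tnnc1 left out. Red symbols (knockout) lie below all blue symbols (wild-type) for Tnnt3/Tnnt1, Myoz1/Myoz2 and Tpm1/Tpm3, and also for Myh1/Myh7 and Myh2/Myh7, where Myh7 is too low to inform the ratio. The groups overlap in the other pairs.

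Promoter motifs, which the list did not use, were also described, and differences in their shares were not tested. RefSeq promoters (GRCm38.p6) were found for 28 of the 35 genes, as 34 promoters, and not for Actn3, Tnnt3, Tnni2, Neb, Tcap, Myot and Myoz1. In the 250 bases before the transcription start, motifs of muscle transcription factors were searched on both strands. The E-box CANNTG, bound by factors such as MyoD, was in 85.3% of the members' promoters and 66.2% of all promoters. The MCAT motif CATTCC, bound by TEAD factors, was in 29.4% and 12.6%, and TATAAA in 20.6% and 12.4%. The MEF2 site was in 14.7% and 2.9%, and the CArG box, bound by serum response factor, in 17.6% and 1.5%. The MEF2 and CArG motifs are AT-rich and can overlap TATAAA.

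The promoter ends of 3 genes that fell and of the most abundant member, Acta1, are shown because they carry different sets of these motifs, and all 4 genes were lower in each knockout library. Each is the 120 bases before the RefSeq start, 5′ to 3′ on the gene's strand, with motif matches in capitals. The stretches of Myl1 and Actc1 lie within the gene spans given above, which begin further upstream. Mybph is at chr1:134193328-134193447 (plus strand) and holds an E-box joined to an MCAT match and the reverse complement of TATAAA. Myl1 is at chr1:66945057-66945176 (minus strand), with the reverse complement of TATAAA and an MCAT match. Actc1 is at chr2:114052876-114052995 (minus strand), with a CArG box. Acta1 is at chr8:123894776-123894895 (minus strand), with a CArG box, an MCAT match and TATAAA.
Mybph: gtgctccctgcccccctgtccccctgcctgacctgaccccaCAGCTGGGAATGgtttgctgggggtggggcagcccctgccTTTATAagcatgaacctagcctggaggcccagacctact
Myl1: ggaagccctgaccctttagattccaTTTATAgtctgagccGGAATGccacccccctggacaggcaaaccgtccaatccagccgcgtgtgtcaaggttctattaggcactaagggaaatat
Actc1: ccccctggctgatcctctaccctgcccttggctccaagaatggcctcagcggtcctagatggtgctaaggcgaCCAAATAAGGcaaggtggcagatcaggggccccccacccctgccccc
Acta1: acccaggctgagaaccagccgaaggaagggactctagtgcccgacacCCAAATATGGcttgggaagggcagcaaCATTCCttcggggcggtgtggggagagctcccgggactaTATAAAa

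Because the deleted cluster makes miR-29 family members, the annotated 3′ untranslated regions of the 35 genes were searched for the match to the miR-29 seed, TGGTGCT. A microRNA pairs with its targets mainly through its seed, bases 2 to 8, shown in capitals. The RefSeq sequences are those of miR-29b and miR-29c, products of the cluster, and of miR-29a from the sister locus. They share the same seed. How much mature miR-29b remained in the knockout was not measured.
miR-29b-3p: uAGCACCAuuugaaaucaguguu
miR-29c-3p: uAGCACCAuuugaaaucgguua
miR-29a-3p: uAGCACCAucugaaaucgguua

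Of the 35 sarcomere genes 1 held a match, 2.9%, against 16.3% of 11664 tested genes with an annotated 3′ untranslated region. The gene was Tpm1, and the match, in capitals, is followed by an A that extends it to an 8mer. It lies at chr9:67022977-67023004 on the minus strand (mm10).
Tpm1: aatcgggtgcggatTGGTGCTaatttaa
Tpm1 fell in the knockout, as given above, and the other 7 genes that fell held no such letters in this region.

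Further sarcomere genes outside the list were counted in 3 lists. Beside their counts, 3.82% of all genes tested fell and 1.34% rose. Of 17 genes for isoforms of embryonic, cardiac or minor fibre types and for filament caps, 5 were tested, 2 fell and 0 rose. Lmod3, a thin-filament nucleator of skeletal muscle, stood at 9.17 ± 3.32 FPKM in wild type and 1.44 ± 1.24 FPKM in the knockout (SD, n = 3), a log2 change of -2.12 (limma adjusted p = 0.0291). Tmod4, a skeletal tropomodulin and the highest gene of the list, stood at 31.3 ± 7.93 and 12.3 ± 3.21 FPKM (-1.28, limma adjusted p = 0.0323). Myl4, an embryonic light chain, had a log2 change of -0.96 (limma adjusted p = 0.0557). The embryonic and neonatal heavy chains Myh3 and Myh8 stood under 0.1 FPKM on average in both groups.

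Of 27 M-band, Z-disc and costamere genes 24 were tested, 4 fell and 0 rose, with a median log2 change of -0.56. Synpo2 went from 6.23 ± 1.59 to 1.44 ± 0.873 FPKM and Synpo2l from 4.14 ± 1.01 to 0.945 ± 0.530 FPKM (SD, n = 3; limma adjusted p = 0.0280 and 0.0275). Both encode Z-disc actin-binding proteins, and Synpo2l passed the filter through its wild-type level alone. Fhl1, a LIM protein with the highest level of the list, had a log2 change of -1.12 (limma adjusted p = 0.0491).

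Of 27 genes for sarcomere assembly and regulation 26 were matched, 24 tested, 6 fell and 0 rose, with a median log2 change of -0.75. The 3 with the smallest p were Stac3, an adaptor of the muscle calcium channel (11.1 ± 3.01 to 3.60 ± 1.41 FPKM), Klhl40, which stabilises thin-filament proteins (5.41 ± 1.51 to 1.95 ± 0.459 FPKM), and the transcription factor Tbx15 (11.1 ± 2.71 to 4.65 ± 1.08 FPKM; SD, n = 3). Their limma adjusted p-values were 0.0319, 0.0337 and 0.0357. The others were Smyd1, Mef2c and Cavin4, with log2 changes of -1.45, -0.79 and -1.08. Mylk2, a myosin light chain kinase and the highest gene of this list, stood at 42.3 and 29.4 FPKM on average (-0.52, limma adjusted p = 0.236). Without both libraries that stood apart, 1, 0 and 0 genes of these lists fell. Leaving out wild-type replicate 1 or 2 or knockout replicate 1 or 2 alone left 0 in each list. Without wild-type replicate 3 the counts were 1, 3 and 2, and without knockout replicate 3 they were 2, 3 and 8.

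Marker lists of muscle and of other tissues were summed in the same libraries, and none was tested against the sarcomere genes. Beside the counts that follow, 3.82% of all genes tested fell and 1.34% rose. Of 16 other myofibre genes 15 were tested, 3 fell and 0 rose, and the median log2 change was -1.10. Their summed level was 2707 to 5059 FPKM in wild type and 1311 to 1917 FPKM in the knockout. The highest members of this list, Pvalb and Atp2a1, did not pass. Its member Atp2a2, named after its values were seen, was higher in every knockout library (log2 change 0.46, limma adjusted p = 0.197). Satellite-cell markers (5 genes, 2 tested, 0 past the limma threshold and 1 at an unadjusted p under 0.05, led by Cdh15 and Myod1) summed to 4.34 to 6.98 FPKM in wild type and 2.11 to 3.57 FPKM in the knockout. Smooth-muscle and pericyte markers (10 genes, 6 tested, 4 fell, led by Myl9 and Rgs5) summed to 147 to 192 FPKM and 94.6 to 96.8 FPKM. Myl9 was not among the 4 that fell. Cardiac markers were near 0: the 8 genes, led by Tnni3 and Mybpc3, summed to 1.03 to 1.43 FPKM and 1.16 to 1.44 FPKM, with Myl7 and Nppb at 0 throughout.

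Markers of connective tissue, fat and cartilage included members that passed the filter on low values through wild type alone and were lower in the knockout by construction: 2 of 5 tested tendon, 1 of 7 fibroblast, 1 of 5 adipocyte and 2 of 7 chondrocyte genes, as well as 2 of the 6 smooth-muscle genes and 1 of the 2 satellite-cell genes. Tendon markers (7 genes, 5 tested, 5 fell, led by Comp and Fmod) summed to 93.4 to 143 FPKM in wild type and 12.7 to 13.3 FPKM in the knockout. Fibroblast markers fell in 4 of 7 tested genes (led by Dcn and Lum), with sums of 127 to 192 FPKM and 59.9 to 77.7 FPKM. Adipocyte markers fell in 5 of 5 (Cfd and Adipoq), with sums of 487 to 753 FPKM and 62.8 to 138 FPKM. Chondrocyte markers fell in 7 of 7 (Col2a1 and Chad), with sums of 245 to 364 FPKM and 7.03 to 40.3 FPKM. Schwann-cell markers fell in 2 of 4 (Pmp22 and Mbp highest), and the osteoblast and osteocyte markers in 3 of 10 (Bglap and Col1a1 highest). Mbp, Bglap and Col1a1 were not among those that fell.

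Markers of marrow cells were summed in the same way. Of 8 neutrophil genes 3 rose, against 1.34% of all genes tested. The sum of the 8, led by S100a9 and S100a8, was 18360 to 35390 FPKM in wild type and 34900 to 45750 FPKM in the knockout. Neither S100a9 nor S100a8 was among those that rose (limma adjusted p = 0.624 and 0.373). Of 7 erythroid genes, led by Hba-a1 and Hbb-bs, 0 passed limma's threshold and 0 had an unadjusted p under 0.05. The part of tissue make-up in the sarcomere differences was not tested.

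**Figure D4:**
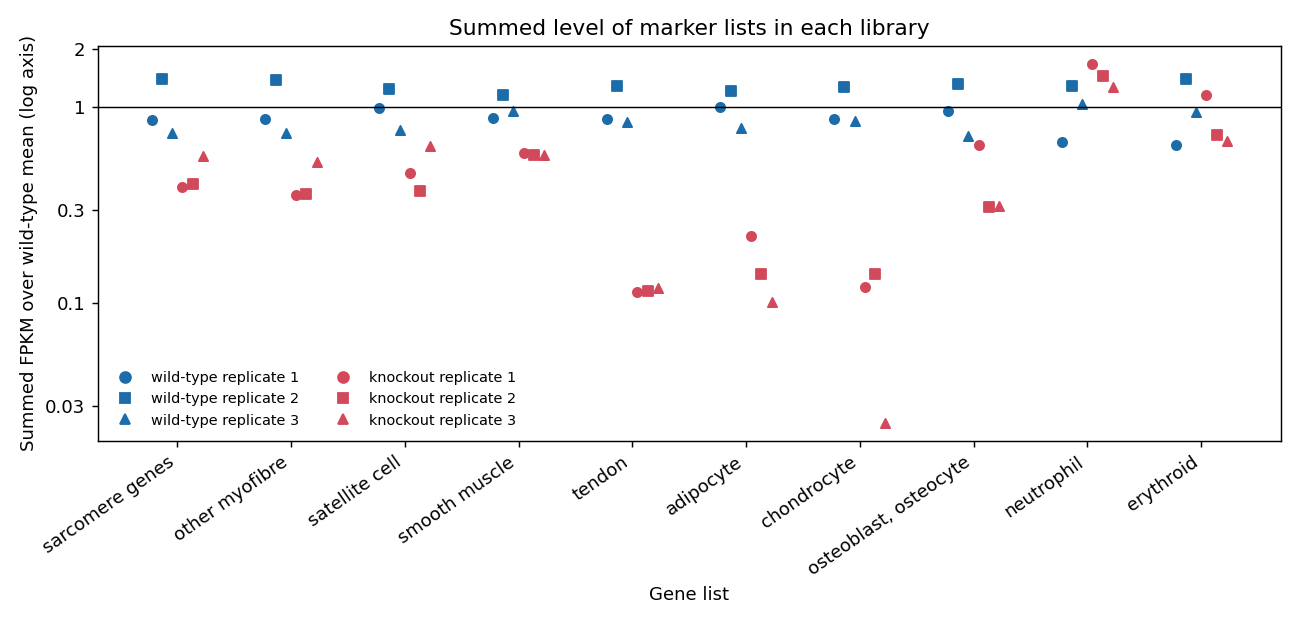
Summed FPKM of each marker list in each library, divided by the list's wild-type mean, on a log axis with a line at 1. Blue symbols are wild-type and red symbols knockout libraries. Knockout libraries lie below all wild-type libraries for the sarcomere, other myofibre, satellite-cell, smooth-muscle, tendon, adipocyte, chondrocyte and osteoblast lists, while the neutrophil and erythroid lists overlap.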

How the data were processed

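The authors deposited FPKM values per gene and library. The submitters' processing notes name Bowtie (0.12.2) and the mm10 build. Counting tool, annotation, strand and scaling: not given in the sources used here. Symbols, coordinates, exon lengths and 3′ untranslated regions came from GENCODE M21 (54495 of 54532 identifiers matched). FPKM multiplied by exon length moved in whole reads (within 0.01) for 96.9% of 29615 genes above 0, but not for Actn3. A read number gives the counting error of a value and not the spread among libraries.

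Genes with a mean of at least 1 FPKM were compared on a log2(FPKM + 1) scale by limma 3.58.1 under R 4.3.3. Settings were trended moderated variances, Benjamini-Hochberg over all genes and a threshold of 0.05. The fit was also run on simulated data with a fixed dispersion and no length trend, which is no support for the calls in these libraries. Log2 changes on this scale understate changes of low genes. Ratios used exact permutation tests. The 19 alternatives changed pseudocount, filter, scaling, variance model, weights, block, length trend, input or libraries. Members, lists, tests and alternatives were chosen with earlier results of these data known, including which libraries stood apart. Named genes are all members and, per further list, those past the threshold, up to 3 of smallest p and the highest (for markers the 2 highest). Myh3 and Myh8 were added after their values were seen. The values of 1 gene past the threshold in a further list are not reported here.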

Additional observations from a re-analysis of the deposited data

How the results depend on the processing

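Of all genes 520 fell and 183 rose. These counts were 100 and 43 with no filter on low values, 1803 and 1551 with array weights, 108 and 19 with the replicate block, 840 and 375 with the length trend removed and 153 and 86 without both libraries that stood apart. With a mean FPKM of at least 5, 232 fell. Leaving out 1 library gave 48 to 348 lower and 14 to 79 higher genes.

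Of the sarcomere genes 8 fell, against 1 with no filter, 17 (and 3 higher) with array weights, 2 with the replicate block, 2 without both libraries that stood apart and 1 to 5 without 1 library. Genes lower among embryonic, cardiac or minor isoforms (2), M-band and Z-disc genes (4) and assembly genes (6) numbered 0, 0 and 0 with no filter or the replicate block, 1, 0 and 0 without both libraries that stood apart, and 0 to 2, 0 to 3 and 0 to 8 without 1 library. With array weights 9 and 12 of the last 2 lists fell. With all libraries scaled to the same total 2 and 2 did, with a mean FPKM of at least 5 it was 0 and 3, and with a pseudocount of 0.1 3 assembly genes did. The causes were not tested.

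The same replicate number did not pair libraries (correlations of deviations of -0.49, -0.27 and 0.16), so the block is no paired analysis, and pair ratios could not pass under it, since 0.25 is the smallest sign-flip p that 3 pairs allow.

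Signs changed for Myl2 (0.44 with array weights, -0.62 to 0.085 without 1 library, and 0.02 without knockout replicate 3), Tnnc1 (-0.01 to 0.67 without 1 library, -0.0101 without wild-type replicate 3), Csrp3 (-0.0142 without knockout replicate 1, up to 1.05 without knockout replicate 3), and Myoz2. For Myoz2 the log2 change was 0.0201 and 0.0071 with pseudocounts of 0.1 and 0.5, 0.0046 with median-of-ratios scaling, 0.0696 with quantile normalization, 0.39 with array weights, 0.27 without both libraries that stood apart and -0.23 to 0.28 without 1 library, among them 0.05 without knockout replicate 3. Over the same omissions the ratio of Myl1 over Myl3 ran from -0.81 to 0.15 and that of Mybpc2 over Mybpc1 from -0.049 to 0.24. Actc1 passed in 16 of 19 alternatives. Mybph passed in the 18 that tested it, which says little of its stability, since its knockout level (18 reads) was under the filter.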
